A study of Mus musculus with 4 samples.

Results

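The caseins and the other main products of milk-making cells were examined in terminal end buds, the swollen tips by which mouse mammary ducts grow at puberty, with and without the transcription factor gene Ovol2. The set held 10 genes of 19938 on the array with a probe set annotated to a single gene. They were the caseins Csn1s1, Csn1s2a, Csn1s2b, Csn2 and Csn3, the whey protein gene Wap, the fat globule genes Btn1a1 and Xdh, and the fat enzyme genes Olah and Cel. The members were taken by name whatever their brightness, and each had 1 probe set.

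The Ovol2 KO mice were Ovol2flox/-;K14-Cre, so they carried 1 floxed and 1 null Ovol2 allele and Cre under the keratin 14 promoter, a promoter of basal epithelial cells and skin. The control mice carried 1 floxed and 1 wild-type allele. The sample characteristics list them as Ovol2flox/+, and the protocol adds that some could have been Ovol2flox/+;K14-Cre. All were female C57/BL6 mice, littermates kept in shared cages, aged 4.5 weeks per the sample labels but 24 to 25 days per the series text. End buds were dissected physically, and each of the 4 arrays held RNA pooled from 3 mice in the Ovol2 KO group (2 arrays) or from 2 mice in the control group (2 arrays). The number of mice pooled cannot be told apart from the genotype. The series text says that end bud shape still differed little between the genotypes at this age.

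Caseins are secreted phosphoproteins that carry calcium into milk as micelles, and kappa-casein coats the micelle surface. Their genes are known for strong induction in the secretory alveoli of pregnancy and lactation. Prolactin drives this induction through its receptor, the kinase JAK2 and the transcription factors STAT5A and STAT5B, which bind sites with the letters TTCNNNGAA. The end bud is a growing structure of the virgin gland and is not a secretory one.

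The promoters of the 3 caseins with an entry in the RefSeq promoter table are shown. Of these caseins Csn1s1 fell, while Csn2 and Csn1s2a did not pass the test. Each sequence runs from 250 bases before the start of the gene to 50 after it, on GRCm38.p6. The capitals mark the TTCNNNGAA match, which reads the same on both strands. The windows are chr5:87665958-87666257 on the plus strand for Csn1s1, chr5:87699376-87699675 on the minus strand for Csn2 and chr5:87774200-87774499 on the plus strand for Csn1s2a.
Csn1s1: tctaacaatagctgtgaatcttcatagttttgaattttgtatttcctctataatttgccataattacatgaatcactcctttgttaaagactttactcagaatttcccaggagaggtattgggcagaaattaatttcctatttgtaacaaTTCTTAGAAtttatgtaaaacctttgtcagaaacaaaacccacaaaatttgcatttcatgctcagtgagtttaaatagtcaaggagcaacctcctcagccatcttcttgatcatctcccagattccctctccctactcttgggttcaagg
Csn2: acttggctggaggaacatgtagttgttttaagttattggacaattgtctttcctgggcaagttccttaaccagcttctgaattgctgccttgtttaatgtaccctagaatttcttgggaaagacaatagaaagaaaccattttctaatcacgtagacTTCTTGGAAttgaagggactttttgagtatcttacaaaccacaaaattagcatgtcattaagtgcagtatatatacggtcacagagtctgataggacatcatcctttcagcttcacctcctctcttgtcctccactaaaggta
Csn1s2a: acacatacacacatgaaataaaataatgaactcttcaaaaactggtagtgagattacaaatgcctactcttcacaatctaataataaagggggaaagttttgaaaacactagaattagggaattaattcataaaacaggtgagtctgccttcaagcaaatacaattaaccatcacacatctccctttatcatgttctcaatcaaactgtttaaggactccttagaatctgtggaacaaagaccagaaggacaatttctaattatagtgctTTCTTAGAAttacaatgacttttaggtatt
The match TTCTTAGAA began 100 bases before the start of Csn1s1, and TTCTTGGAA began 93 bases before the start of Csn2. In Csn1s2a the match began at base 21 after the start. Of the 10 members, 6 had a promoter in the table, and the windows of the other 3, Wap, Olah and Cel, held no match. The window of Odam, a gene of the casein cluster that fell but is not a member, also held no match. Over all 32851 promoters of that length, 8.3% held TTCNNNGAA. The core letters of OVO family sites, CCGTTA, searched on both strands, were in 2.76% of all promoters and in 0 of the 6, which says only that these letters are not in these windows.

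The arrays gave 1 signal per probe set on a linear scale. They carried no detection calls, so the level of genes with no expected role in the mammary gland served as a rough guide to background. Over 1194 olfactory and vomeronasal receptor genes, the 95th percentile of the signal was 174 and 206 on the Ovol2 KO arrays and 222 and 181 on the control arrays. Probe sets differ in brightness for the same amount of RNA, so the levels of milk genes are not set against each other. The same limit makes any reading against the receptor genes rough. Array medians over 35556 probe sets were 263 and 272 in Ovol2 KO and 264 and 252 in control. Differences below are log2 differences, Ovol2 KO minus control, from a limma fit over all 19938 genes on quantile-normalized log2(signal + 16), and values after ± are SEs with n = 2 arrays per group. A call is an adjusted p (Benjamini-Hochberg) under 0.05. An exact permutation test on a single gene, with 2 arrays against 2, cannot go below a two-sided p of 0.333.

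Of the 10 milk genes, 1 fell (Csn1s1), 2 rose (Btn1a1 and Xdh) and 7 did not pass the test. Over all genes 6.06% were called, with 2.25% lower and 3.81% higher. The log2 differences ran between -1.09 and 0.65, with a median of -0.07 against a median of -0.05 over all genes. The milk genes thus did not move in 1 direction. Over the 1194 receptor genes the median log2 difference was -0.11, with 5th and 95th percentiles of -0.35 and 0.11. After normalization the groups did not overlap for 5 of the 10 genes, against 49.6% of all genes. Both Ovol2 KO arrays were above both control arrays for 2 of them (20.1% of all genes) and below for 3 (29.5% of all genes).

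**Figure D1:**
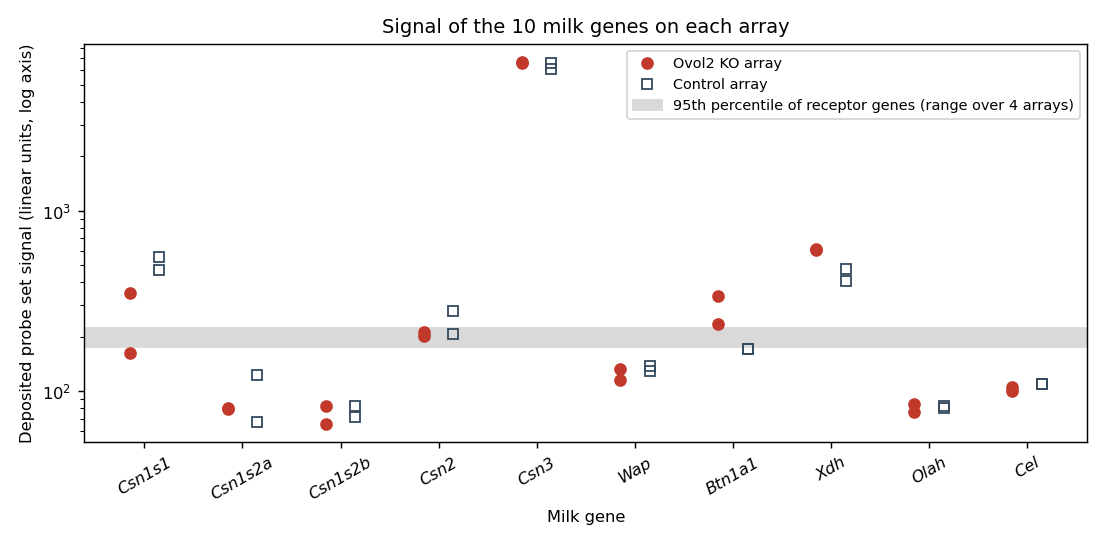
Deposited linear signal (log axis) of each milk gene on each array, Ovol2 KO as filled circles on the left of each pair and control as open squares on the right, with 2 arrays per group. The grey band is the range over the 4 arrays of the 95th percentile of receptor genes. Csn3 lies far above the band on all 4 arrays, and Csn1s2a, Csn1s2b, Wap, Olah and Cel lie under it.

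Csn1s1 encodes an alpha-casein, a calcium-binding core protein of the micelle. Its signal was 348 and 162 in the Ovol2 KO arrays, against 466 and 551 in the control arrays. Both Ovol2 KO arrays were below both control arrays, and the second was under the 95th percentile of the receptor genes on its own array (206). Csn1s1 fell by 1.09 ± 0.26 on the log2 scale, which is 2.14-fold lower in Ovol2 KO (95% CI of the log2 difference -1.68 to -0.51, limma adjusted p = 0.0371). In bulk end buds, fewer cells that express a gene and less RNA per cell cannot be told apart. The Ovol2 KO arrays differed from each other by 1.07 on the log2 scale and the control arrays by 0.20. Without Ovol2 KO replicate 2 the log2 difference was -0.57, from a single Ovol2 KO array. The call was lost without a mean-variance trend (limma adjusted p = 0.228) and with a robust prior (limma adjusted p = 0.401).

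The other alpha-type caseins, Csn1s2a and Csn1s2b, stayed in the range of the receptor genes. Csn1s2a read 79.8 and 79.7 in Ovol2 KO, against 122 and 67.0 in control, and the groups overlapped. Its log2 difference was -0.16 ± 0.19 (limma adjusted p = 0.704). Csn1s2b read 65.3 and 81.8 in Ovol2 KO, against 82.7 and 71.1 in control, and the groups overlapped. Its log2 difference was -0.06 ± 0.14, with a 95% CI of -0.37 to 0.26. These 2 genes encode related proteins, and how far their probes share targets is not known here.

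Csn2 encodes beta-casein, the classic STAT5 target of mammary cells. Its signal was 201 and 212 in Ovol2 KO, against 278 and 205 in control. These values were just above the 95th percentile of receptor genes on each array. The deposited signals overlapped between the groups, while after normalization both Ovol2 KO arrays (7.79 and 7.79) lay just under both control arrays (8.20 and 7.85). The log2 difference of -0.24 ± 0.14 did not pass (95% CI -0.55 to 0.07, limma adjusted p = 0.427). It was -0.07 without control replicate 1 and -0.41 without control replicate 2.

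Csn3, the kappa-casein gene, read above all 1194 receptor genes on each of the 4 arrays. It read 6661 and 6551 in Ovol2 KO, against 6593 and 6098 in control. The groups overlapped, and all 4 arrays were close together. The log2 difference was 0.04 ± 0.04 (limma adjusted p = 0.649). Its 95% CI was -0.05 to 0.14.

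Wap, the whey acidic protein gene, is a late marker of alveolar differentiation in mice. It read 115 and 131 in Ovol2 KO, against 136 and 129 in control, under the 95th percentile of receptor genes on all 4 arrays. The log2 difference was -0.10 ± 0.13 (limma adjusted p = 0.727).

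**Figure D2:**
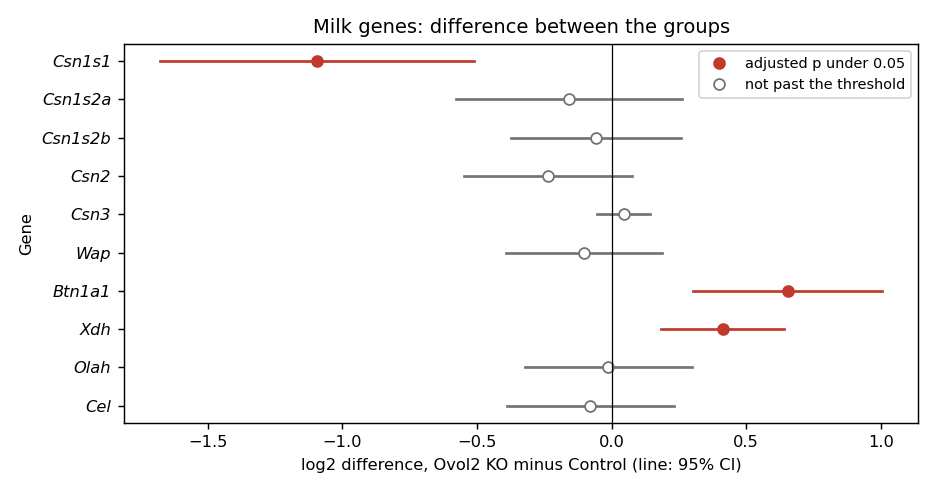
Log2 difference, Ovol2 KO minus control, for each milk gene, with its 95% CI as a line. Filled points passed an adjusted p of 0.05: Csn1s1 at -1.09, Btn1a1 at 0.65 and Xdh at 0.41.

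The genes of the milk fat globule membrane both rose. Btn1a1 encodes butyrophilin, a membrane protein that coats the secreted fat droplet. Its signal was 234 and 337 in Ovol2 KO, against 171 and 170 in control. Both Ovol2 KO arrays were higher than both control arrays, and only the Ovol2 KO arrays passed the 95th percentile of receptor genes. Btn1a1 rose by 0.65 ± 0.16 on the log2 scale, or 1.57-fold (95% CI 0.30 to 1.01 on the log2 scale, limma adjusted p = 0.0381). Since both control signals were within the range of background, the fold may understate the change. Without Ovol2 KO replicate 2 the log2 difference was 0.42 (limma adjusted p = 0.208), and the call was also lost without control replicate 1 (adjusted p = 0.102) and without the trend (adjusted p = 0.162).

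Xdh encodes xanthine oxidoreductase, a purine enzyme that also binds butyrophilin at the fat globule surface and that is made in other tissues too. Its signal was 605 and 612 in Ovol2 KO, against 405 and 474 in control. The Ovol2 KO arrays lay close together and above both control arrays, and all 4 arrays were above the 95th percentile of receptor genes. Xdh rose by 0.41 ± 0.10 on the log2 scale, or 1.33-fold (95% CI 0.18 to 0.64 on the log2 scale, limma adjusted p = 0.0427). The call was lost without control replicate 1 (log2 difference 0.31, limma adjusted p = 0.328), without Ovol2 KO replicate 2 (0.38, adjusted p = 0.0795), with median centring (adjusted p = 0.137) and without the trend (adjusted p = 0.16).

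The fat enzyme genes stayed at background level. Olah encodes the thioesterase that releases medium-chain fatty acids from fatty acid synthase. It read 76.4 and 84.8 in Ovol2 KO, against 79.8 and 82.5 in control, with a log2 difference of -0.01 ± 0.14. Cel encodes the bile salt-dependent lipase of pancreas and milk. It read 105 and 100.2 in Ovol2 KO, against 109 and 110 in control, with a log2 difference of -0.08 ± 0.14. Neither gene passed (limma adjusted p = 0.973 for Olah and 0.801 for Cel). For these genes and for Wap, Csn1s2a and Csn1s2b, a change under the background level of the array was not detectable.

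The 5 caseins lie in 1 cluster on chromosome 5. In the RefSeq order the genes with a probe set there are Csn1s1, Csn2, Csn1s2a, Csn1s2b, Prr27, the pseudogene Gm7337, Odam, BC037156 and Csn3. The neighbours were taken by position after the data had been seen. Odam, an epithelial secreted protein gene best known from tooth enamel organs, read 182 and 104 in Ovol2 KO, against 301 and 249.1 in control. Odam fell by 0.95 ± 0.22 on the log2 scale (limma adjusted p = 0.0331), and the difference was -0.55 without Ovol2 KO replicate 2. The reading of 104 was under the 95th percentile of receptor genes on its array (206) and that of 182 was close to it (174), so the fall may be understated. Its call was lost without control replicate 1 (limma adjusted p = 0.0533), with a robust prior (0.12) and without the trend (0.191). Prr27, Gm7337 and BC037156 did not pass, with log2 differences of 0.00, -0.13 and -0.26. Prr27 and BC037156, like Csn1s2a, Csn1s2b and Gm7337, read under the 95th percentile of receptor genes on every array. A fall of these genes may thus have been missed or understated, and no difference between genes of the cluster was tested.

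**Figure D3:**
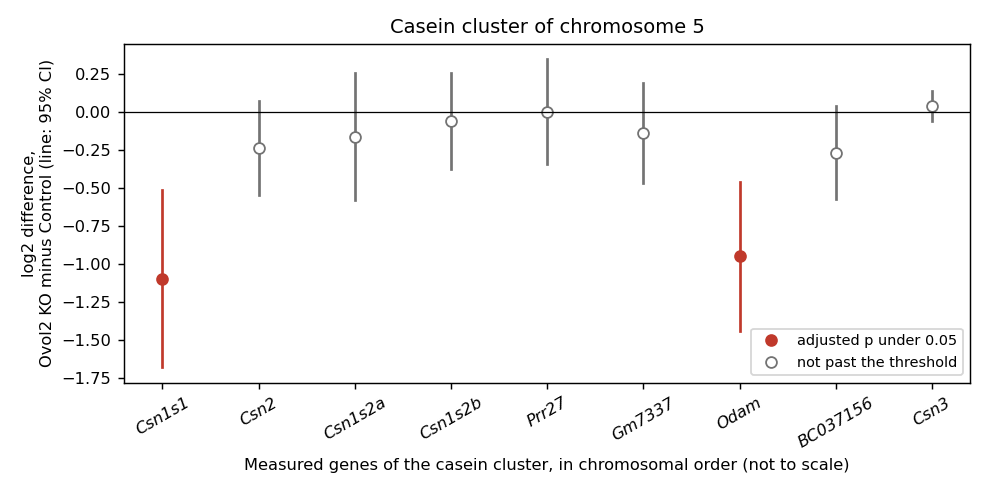
Log2 difference, Ovol2 KO minus control, with 95% CI, of the measured genes of the casein cluster in chromosomal order and not to scale. Csn1s1 at -1.09 and Odam at -0.95 passed the threshold, and the other genes did not.

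Profiles over the 4 arrays were compared by the Euclidean distance between mean-centred log2 values. The genes nearest to Csn1s1 were Lyz1, Lyz2, Ptger3, S100a14 and Slc6a15, at distances between 0.128 and 0.304 among 503 genes with at least 0.5 times its range. This search was added after the values of Csn1s1 were seen. Lyz1 and Lyz2 are lysozyme genes with very similar sequences, so their probes may not be independent. Lyz2 read 943 and 456 in Ovol2 KO, against 1177 and 1350 in control, the same low second Ovol2 KO array as Csn1s1. The genes nearest to Csn3, the casein with the brightest probe set, were Fgf10, Ppil4, Tecpr1, Eif3k and Galnt5, at distances up to 0.0154, all with log2 differences under 0.05. A likeness over 4 arrays is a description only.

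**Figure D4:**
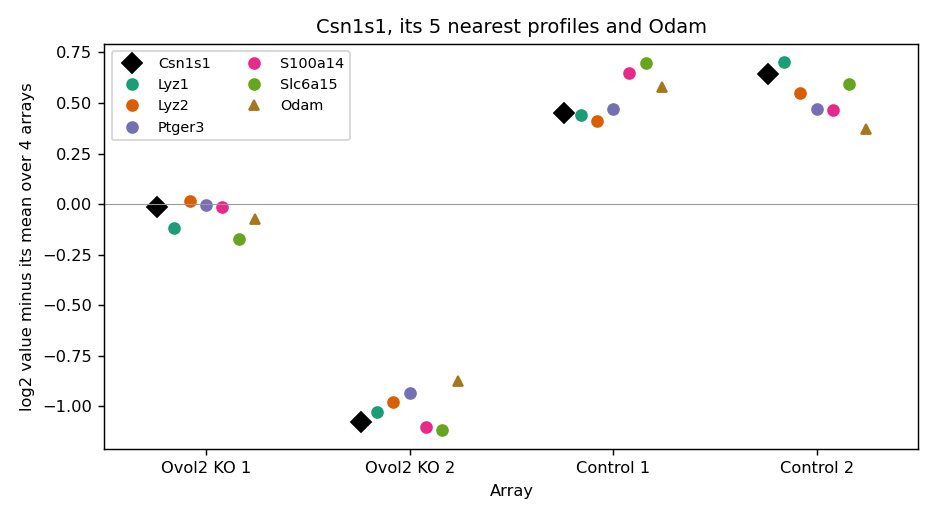
Log2 value minus its mean over the 4 arrays for Csn1s1 (diamonds), its 5 nearest genes (circles) and Odam (triangles), with the Ovol2 KO arrays on the left and the control arrays on the right. All 7 genes are lowest on Ovol2 KO replicate 2.

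Other products of milk-making cells also went both ways. Of 10 measured genes for secreted or membrane proteins of milk, 3 rose, 1 fell and 6 did not pass, against 3.81% of all genes called higher and 2.25% lower, with a median log2 difference of 0.16 (-0.05 over all genes). Glycam1, which encodes a small mucin found in milk and on lymph node venules, read 777 and 28.5 in Ovol2 KO, against 3418 and 4098 in control. It fell by 4.37 ± 0.92 on the log2 scale (limma adjusted p = 0.0213), and the log2 difference was -2.31 without Ovol2 KO replicate 2 and -6.43 without Ovol2 KO replicate 1. The reading of 28.5 was under the median of the receptor genes on its array (69.3), at background, so the size of the fall is not firm. Ltf, the lactoferrin gene, read 1385 and 2069 in Ovol2 KO, against 445 and 833 in control, and rose by 1.43 ± 0.25 on the log2 scale (limma adjusted p = 0.00863). Neither Glycam1 nor Ltf passed with a robust prior or without the trend. Mfge8, a fat globule protein gene, rose by 0.20 ± 0.05 on the log2 scale, and B4galt1, whose product makes lactose together with alpha-lactalbumin, by 0.24 ± 0.06. Both calls were lost with median centring, without the trend, without control replicate 1 and without Ovol2 KO replicate 1, and that of B4galt1 also with an offset of 1 (limma adjusted p = 0.0522) and with crossed replicate numbers (0.0520). The alpha-lactalbumin gene Lalba and Spp1 were not analysed here.

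Of 15 genes of milk fat synthesis and of mineral and glucose transport, 1 rose, 0 fell and 14 did not pass, near the share over all genes, with a median of -0.03. Lpl, the lipase that takes fat from blood lipoproteins, read 657 and 636 in Ovol2 KO, against 278 and 348 in control, and rose by 0.98 ± 0.12 on the log2 scale (limma adjusted p = 0.00175). Plin2, which coats lipid droplets, differed by 0.21 ± 0.07 and did not pass (limma adjusted p = 0.11).

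Several genes of the prolactin pathway and other regulators of milk genes rose. Of 20 measured regulators, 8 rose, 0 fell and 12 did not pass, and 18 of the 20 log2 differences were above 0, with a median of 0.23. Over all genes 3.81% were called higher and 2.25% lower, 37.7% of log2 differences were above 0 and the median was -0.05. That background includes many dim genes, while 19 of the 20 regulators were above the 40th percentile of mean signal. In the fit limited to the 11963 genes above it, 10.7% were called, with 753 higher and 532 lower and a median of -0.02. The count of regulators called higher was 8 in that fit too. Stat5a read 3101 and 2387 in Ovol2 KO, against 1700 and 1976 in control, and rose by 0.56 ± 0.10 on the log2 scale (limma adjusted p = 0.011). Jak2, the kinase upstream of it, read 2821 and 2542 in Ovol2 KO, against 1774 and 2019 in control, and rose by 0.49 ± 0.07 (limma adjusted p = 0.00272). For both genes all Ovol2 KO arrays were above all control arrays.

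Wnt4, a ligand gene induced by progesterone, rose by 0.45 ± 0.10 on the log2 scale, and Id2, a helix-loop-helix regulator needed for alveolar growth, by 0.44 ± 0.05. Cav1, whose product can hold back JAK2 signalling, rose by 0.42 ± 0.06, the growth hormone receptor gene Ghr by 0.40 ± 0.07, the progesterone receptor gene Pgr by 0.36 ± 0.08 and Cebpb, a transcription factor gene of alveolar differentiation, by 0.28 ± 0.07. The count was 4 without control replicate 1, where Wnt4 (log2 difference 0.28), Pgr (0.23), Ghr (0.37) and Cebpb (0.28) did not pass, and 0 without the trend. With a robust prior the calls of Stat5a and Pgr were lost, with median centring those of Ghr and Cebpb. Cebpb also did not pass without control replicate 2, without Ovol2 KO replicate 2 or with an offset of 1 in place of 16.

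Stat5b differed by 0.26 ± 0.08 on the log2 scale (limma adjusted p = 0.105). It passed under 5 of 14 alternatives, among them the deposited values without normalization (limma adjusted p = 0.0251) and fits with an array left out. The STAT5-induced feedback genes Socs2 and Cish differed by 0.19 ± 0.07 and 0.19 ± 0.12 and did not pass. Elf5, a luminal transcription factor gene needed for alveolar secretory cells, read 1337 and 1363 in Ovol2 KO, against 1352 and 1294 in control, with a log2 difference of 0.01 ± 0.07, whose sign turned with median centring. The prolactin receptor gene Prlr was not analysed here.

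**Figure D5:**
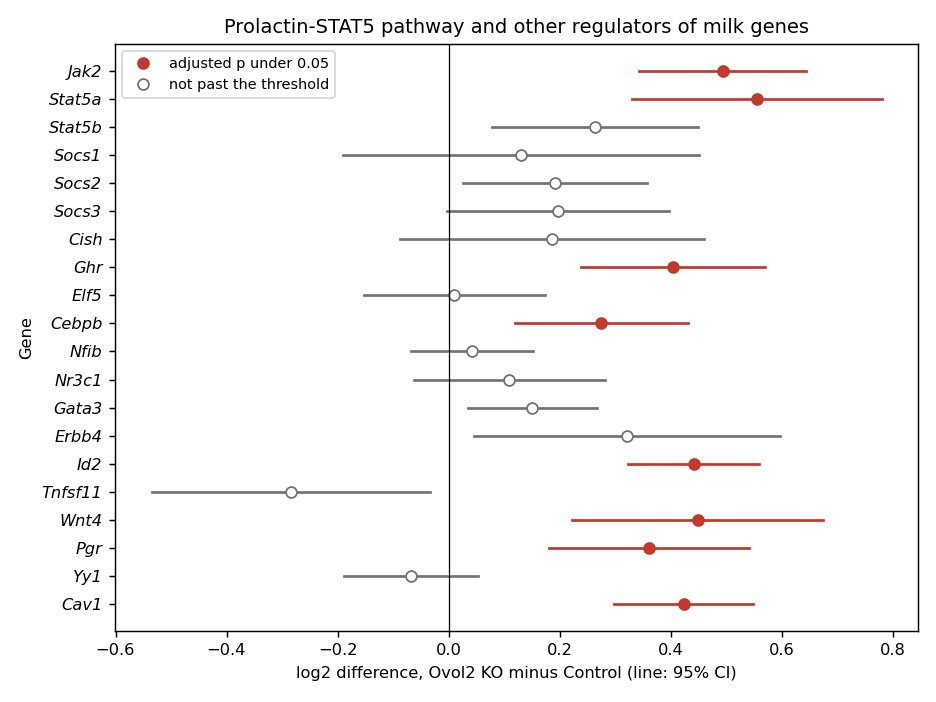
Log2 difference, Ovol2 KO minus control, with 95% CI, of 20 regulators of milk gene transcription. Filled points passed an adjusted p of 0.05, and all 8 of them, from Cebpb at 0.28 to Stat5a at 0.56, are above 0.

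The check of the genotype and the markers of other cells bear on these values. Ovol2 read 211 and 204 in Ovol2 KO, against 250 and 291 in control, a log2 difference of -0.39 ± 0.13 that did not pass (limma adjusted p = 0.13), and where its probes lie relative to the deleted part is not known here. Zeb1, a repressor of epithelial genes, rose by 2.01 ± 0.18 on the log2 scale, and Krt14 differed by 0.43 ± 0.14 and did not pass. The luminal keratin gene Krt8 was bright on all arrays (12680 and 12181 in Ovol2 KO, against 12426 and 12658 in control). Over all genes 3.81% were called higher and 2.25% lower. Of 11 luminal markers 1 rose (Pgr, also among the regulators) and 0 fell. Of 6 basal markers 2 rose (Acta2 and Myh11) and 1 fell (Trp63), while Krt5, Krt14 and Krt17 did not pass. Of 9 lymphocyte markers 0 rose and 6 fell, with a summed signal of 3006 and 1494 in Ovol2 KO, against 7890 and 6917 in control. Cxcl13 alone read 1965 and 428 in Ovol2 KO, against 5346 and 4965 in control. The gap between the Ovol2 KO sums came mainly from this gene. Of 10 fibroblast markers 9 rose and 0 fell (sums 25219 and 29794 in Ovol2 KO, against 11879 and 12517 in control), and of 10 endothelial markers 5 rose and 0 fell (5918 and 7336, against 3610 and 4555). Of 9 adipocyte markers 2 rose and 0 fell (5634 and 6466 in Ovol2 KO, against 4319 and 4634 in control), while Adipoq and Lep read under the 95th percentile of receptor genes on all arrays. Of 8 macrophage markers 0 rose and 1, Lyz2, fell (4609 and 3155, against 3926 and 4539). In Ovol2 KO the lymphocyte markers Cd79a (36.4 and 39.3) and Ms4a1 (38.7 and 42.4) read under the receptor gene medians of those arrays (61.6 and 69.3). The size of their falls is thus not firm. The part of these other cells in the differences of Csn1s1, Glycam1, Btn1a1, Xdh, Lpl and the regulators was not tested.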

How the data were processed

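Trizol- and column-purified RNA was amplified with random hexamers and biotin-labelled for Affymetrix whole-transcript arrays, per the labels' protocols. The deposited values were 1 signal intensity per probe set on a linear scale. They were made with PLIER version 2.0 and Affymetrix Expression Console version 1.1.1, per the submitters' processing notes. The sources used here do not give the settings, the background correction, any normalization between arrays or the build.

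Of 35556 probe sets, 21789 carried 1 gene symbol in the platform annotation, 1621 several and 12146 none listed. Entrez identifiers of 21698 were found in RefSeq (GRCm38.p6), which changed 0 symbols. The brightest probe set stood for each of 19938 genes. Values were log2(signal + 16), quantile normalized, because array medians differed by 0.101. No filter on dim genes was applied, since 7 of the 10 members lie under the 40th percentile of mean signal (log2 7.97) and 3 above it.

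The comparison was fitted in R version 4.3.3 with limma version 3.58.1 (lmFit, eBayes with trend, two-sided), checked on simulated data. The fit had 2 residual and 8.12 prior degrees of freedom. The median SE was 0.14 in the dimmest and 0.066 in the brightest quartile, and the number of arrays limits the precision. The labels call arrays biological replicates.

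All 10 members were named, with fixed regulators and milk genes. Every called gene, up to 4, of the milk protein, milk fat and transport, and regulator lists was also named. Of the cell markers, not every called gene was named. The other called regulators, Odam and the genes near Csn1s1 were chosen after their values were seen. The members and lists were chosen with earlier results of these data known. Alternatives were deposited values, median centring, offsets 1 and 64, the filter, other variance priors, the mean of probe sets, each array left out, and a replicate block. With an array left out, its group held a single array, so the p-values do not measure the spread within that group.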

Additional observations from a re-analysis of the deposited data

How the results depend on the processing

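Csn1s1 kept its sign under all 14 alternatives and its call under 12, and Xdh its sign under all 14 and its call under 10. Btn1a1 kept its sign under all 13 in which it was tested and its call under 10. These tallies include the fits with an array left out, which have a single array in a group. The filter, the other variance priors, the mean of probe sets and the replicate blocks left these genes' log2 differences unchanged. Their signs could not turn under those alternatives. The call of Csn1s1 was lost without the trend and with a robust prior. The number of milk genes called higher was 1 with median centring, 1 with the filter at the 40th percentile (where 3 members were tested and Btn1a1 was not) and 0 without the trend, and 0 to 2 with an array left out. The number called lower was 0 without the trend and 0 with a robust prior, and 1 with any array left out. The median of the milk genes was 0.0447 over the 3 members above the filter, and -0.07 to -0.03 with an array left out. Over all genes 38 were called without the trend and 628 to 2189 with an array left out. The replicate numbers are shared by the groups but no label says that they pair samples. With the replicate block 2236 genes were called, and the same 3 milk genes. Same-numbered arrays deviated in opposite directions (r = -0.24 over genes), and crossing the numbers, added after seeing the data, gave 1623 calls.

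The alternatives for the other lists were also added after seeing the data. Other milk proteins called higher were 1 with median centring, 0 without the trend and 1 to 4 with an array left out; called lower, they were 0 without the trend and 0 with a robust prior. Milk fat and transport genes called higher were 0 without the trend and 2 with the replicate block, and called lower 0 to 1 with an array left out. Regulators called higher were 0 without the trend and 4 to 11 with an array left out, and called lower 0 to 1. Among genes that did not pass, the sign turned with an array left out for Csn1s2a (-0.46 to 0.14), Csn1s2b (-0.153 to 0.0394), Csn3 (-0.00414 to 0.0924), Olah (-0.0991 to 0.0769) and Elf5 (-0.0491 to 0.0700), and for Elf5 with median centring (-0.0187). The cause of these changes was not tested. Fits on deposited or median-centred values took the variance as known from the trend. Without detection calls, changes of genes at background level may have been missed or understated.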
